A study of Rattus norvegicus with 252 samples.

Results

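The comparison described here is between wild-type (WT) hippocampi taken at 6 months and at 2 months of age. The libraries were chosen by their titles, which give 10 libraries at 6 months and 10 at 2 months, 20 of the 252 samples of the series. All came from the right hippocampus of wild-type Long Evans rats, with 5 females and 5 males at each age, and the labels place all 20 in the first of 2 batches. The series profiled RNA of 4 brain tissues at 2, 6 and 12 months in wild-type rats and in rats heterozygous for Q130KI, a knock-in used to model Huntington's disease. Further groups were used here only beside the WT hippocampal comparison. They are the hippocampi of Q130 rats at 6 and 2 months and the WT cortex, striatum and cerebellum at 6 and 2 months (14 striatal libraries). At 12 months they are the Q130 hippocampi and the WT libraries of all 4 tissues, which belong to the second batch. The levels of 1 gene were also counted over all 228 libraries used. Each library of a tissue is from a separate animal, so each comparison is cross-sectional. The first parts of the animals' identifiers, of which there were 7 at 6 months and 5 at 2 months, had 0 in common between the ages, so whatever animals with 1 such part share and age cannot be told apart.

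The hippocampus is a fold of cortical tissue that is required for forming new episodic and spatial memories. Its principal cells are the pyramidal neurons of the Ammon's horn fields and the granule cells of the dentate gyrus, where neurons continue to be born after birth at a rate that declines as rodents mature. Between early adulthood and middle age, myelination, glial state and the rate of neurogenesis are all known to go on changing in the rodent hippocampus. In bulk tissue, fewer cells of a type and less RNA per cell cannot be told apart.

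The deposited tables name genes by Ensembl rat identifiers, and 0 of the 32883 identifiers could be paired with a symbol in the reference used here. Lists of marker and pathway genes written as symbols therefore could not be applied, the labelled tissue could not be checked against its classical markers, and genes are described below as groups or, in 4 cases, by identifier. Estimated counts per library summed to 29.5 to 41.3 M (M, 1000000 counts) at 6 months and to 29.3 to 37.7 M at 2 months, with medians of 34.6 and 34.5 M. Levels are given in CPM, counts per 1000000 counts of the library. Each of the 20 libraries correlated best with other hippocampal libraries, with a median Pearson r across genes of 0.978 to 0.987 at 6 months and of 0.985 to 0.988 at 2 months. Across the 228 libraries used, 9 had a median r with their own tissue below 0.97. None of these 9 was a WT hippocampal library of 2 or 6 months, but 2 were Q130 hippocampi of 6 months (male replicate 3, r = 0.962, and male replicate 5, r = 0.933, which correlated best with striatal libraries, while the striatal library of the same rat correlated best with hippocampal ones) and 1 was a WT cortex of 6 months (male replicate 4, r = 0.922). The main results that use these libraries are given with and without them.

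The hippocampal transcriptome at 6 months differed from that at 2 months in many genes and by small amounts. Of 15711 genes tested, 2679 were called at an adjusted p under 0.05 (edgeR quasi-likelihood test with sex as covariate, Benjamini-Hochberg adjustment over all genes tested), which is 17.1% of them. Of the called genes, 1462 were higher at 6 months (9.31% of genes tested) and 1217 were lower (7.75%). The median size of the change among called genes was 0.2 on the log2 scale. The median log2 fold change, 6 months over 2 months, was 0.17 among the higher genes and -0.24 among the lower genes, and the called values ranged from -2.05 to 2.19. At an unadjusted p under 0.05 the count was 5006 genes (31.9%). In 1 fit over the 40 hippocampal libraries of both genotypes, which then share 1 estimate of the spread, the count for the same contrast was 657 of 15995 (4.11%), and without the 2 Q130 libraries that stand apart it was 2111 of 16108 (13.1%).

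**Figure D1:**
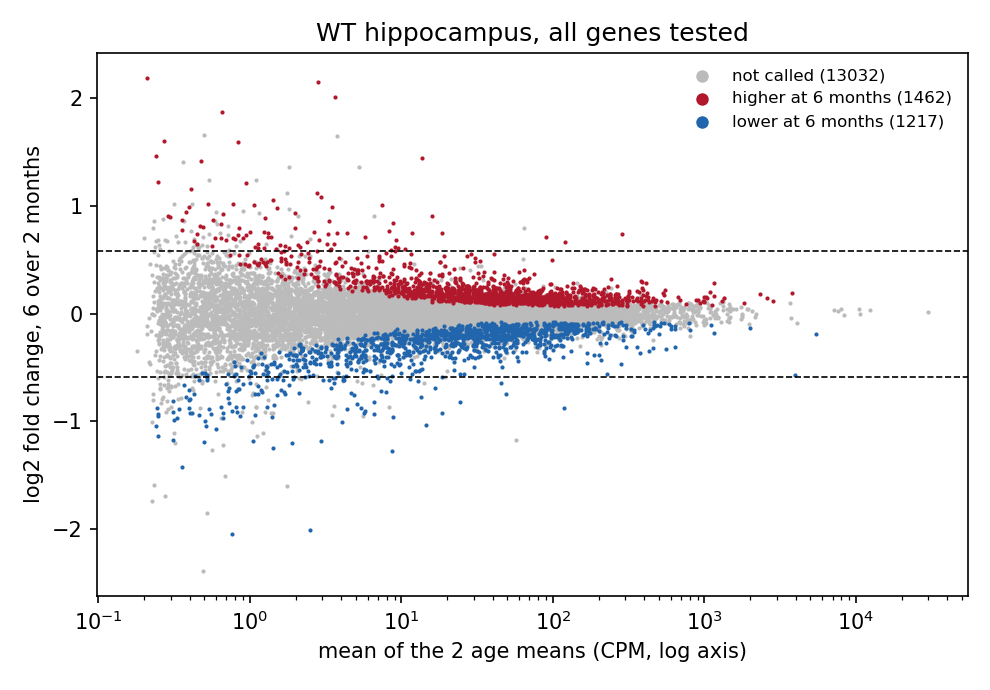
Log2 fold change, 6 over 2 months, against mean level in CPM (log axis) for the 15711 genes tested in WT hippocampus, with dashed lines at 1.5-fold. The 1462 higher and 1217 lower genes lie mostly between the dashed lines, and the changes beyond them are found mainly at low levels.

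Changes beyond 1.5-fold were few. They were found in 88 genes that rose (0.56% of genes tested) and 115 that fell (0.732%), and 35 genes changed beyond 2-fold, 19 upward and 16 downward. Of those 35, 19 had a mean level under 1 CPM. Among the 13986 genes with a mean of at least 1 CPM, 94.3% had a 95% interval of the difference that lay wholly inside 1.5-fold in either direction, so for most genes with a measurable level a change larger than that was outside the interval.

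The share of genes called and the median size of change among called genes moved in opposite directions with level. Estimates are less precise at low levels, and a less precise estimate must be larger to be called. The sizes below are of called genes only, so whether genes at low levels changed more with age was not tested. Of the 2103 genes with a mean above 100 CPM, 22.5% were called, 300 higher and 173 lower, with a median size of 0.13 on the log2 scale. Of the 7709 genes between 10 and 100 CPM, 19.9% were called, 889 higher and 648 lower, with a median size of 0.17. Of the 4174 genes between 1 and 10 CPM, 13.5% were called, 231 higher and 331 lower, with a median size of 0.38. Of the 1725 genes under 1 CPM, 6.2% were called, 42 higher and 65 lower, with a median size of 0.8. In this fit of all 20 libraries, genes that rose outnumbered those that fell above 10 CPM, and those that fell outnumbered those that rose below it.

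A stricter description asks whether the 2 ages overlap at all. In 58 genes (0.369% of genes tested) each of the 10 libraries of 6 months lay above each of the 10 of 2 months, and in 106 genes (0.675%) each lay below. All 58 of the first group were called higher and all 106 of the second were called lower. Among the 35 genes changed beyond 2-fold, 8 of the 19 that rose and 6 of the 16 that fell had such separate ranges. In 16 of the 88 genes that rose beyond 1.5-fold and in 23 of the 115 that fell, the libraries of a single age spanned more than 4-fold. Part of the largest mean changes thus came with large differences among libraries of 1 age. Of the 203 genes beyond 1.5-fold, 86 had a mean under 1 CPM, and the part of counting error in these spans was not tested.

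A principal component analysis of the 20 libraries separated ages and sexes. The first component held 15.1% of the variance, and age accounted for 48.3% of the variation in its scores. The second component held 10.7% of the variance, and sex accounted for 73.9% of the variation in its scores. One library of 6 months, male replicate 3, lay far from the rest on the first component. When the analysis was repeated without it, age accounted for 79.5% of the variation in the scores of the new first component. Within each sex, every library of 6 months scored above every library of 2 months on the first component of all 20 libraries. Across the sexes the ages overlapped, since females 1 and 4 of 6 months, at -5.6 and -1.1, scored no higher than male 1 of 2 months, at -1.1.

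**Figure D2:**
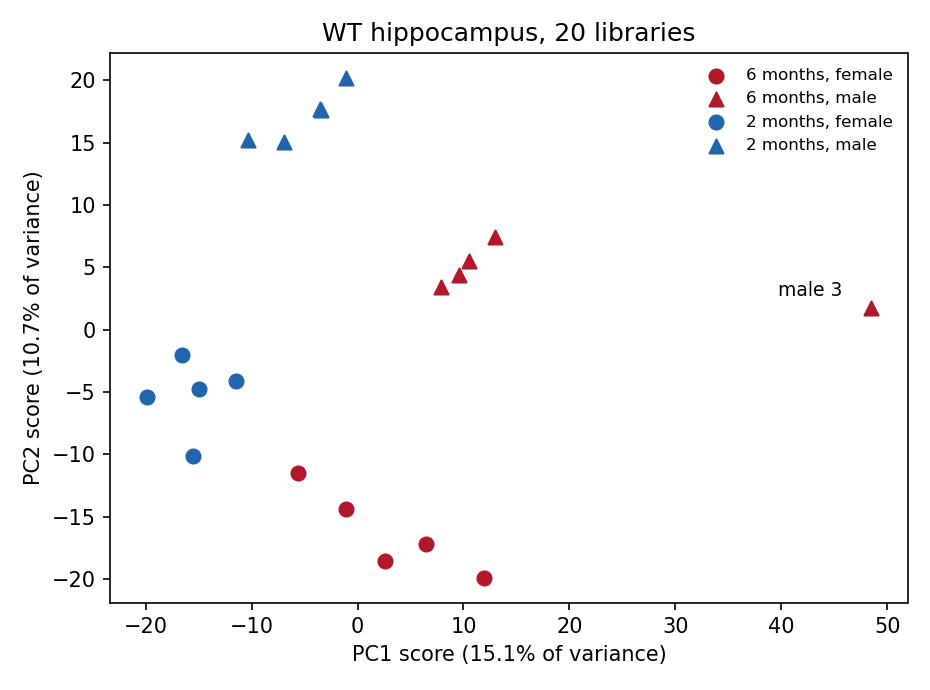
Scores of the 20 WT hippocampal libraries on the first and second principal components, with colour for age and symbol for sex. The libraries of 6 months lie to the right of those of 2 months of the same sex, the sexes separate on the second component, and male replicate 3 of 6 months lies apart.

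Male replicate 3 of 6 months affected the balance of the calls. In 469 genes it lay at least 1.5-fold below each of the other 19 libraries, against 14 to 55 such genes for any other library, and in 13 genes it lay at least 1.5-fold above them, against 1 to 32. Without it, 2636 genes were called (16.7% of those tested), 1234 higher (7.82%) and 1402 lower (8.88%), so that genes that fell then outnumbered those that rose. Of the 1462 genes called higher with all 20 libraries, 1144 were also called higher without male replicate 3, and of the 1217 called lower, 1129 were also called lower. Over the genes called without it, male replicate 3 was shifted away from the 2-month mean by 0.41 on the log2 scale on average, in the direction of the call, and the other 9 libraries of 6 months by 0.18 to 0.3. Male replicate 3 thus lay on the same side as the rest of its age group and farther out. Its level of long genes relative to short ones was also the lowest of its age group, as given below. The part of this in its shift was not tested.

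4 genes with a mean of at least 1 CPM are described singly, the called genes with the largest positive and the largest negative log2 fold changes. ENSRNOG00000031211 had the largest increase. Its level at 6 months was lowest at 3.76 CPM, with a median of 4.22 and a highest value of 5.92 CPM, and at 2 months the lowest value was 0.73, the median 0.988 and the highest 1.63 CPM. The ranges of the 2 ages did not overlap, and the log2 fold change was 2.15 ± 0.12 (SE, n = 10 per age, edgeR adjusted p = 5.26e-12). Both sexes showed it, with 4.22 ± 0.627 CPM in females of 6 months and 0.938 ± 0.121 CPM in females of 2 months, and with 5 ± 0.827 CPM in males of 6 months and 1.14 ± 0.306 CPM in males of 2 months (SD, n = 5 each). On the TPM scale (transcripts per 1000000 transcripts), which takes gene length into account, ENSRNOG00000031211 averaged 3.71 ± 0.589 TPM at 6 months and 0.848 ± 0.205 TPM at 2 months (SD, n = 10 each).

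The change of ENSRNOG00000031211 differed between brain tissues. In the cortex of the same rats its log2 fold change was 1.34 ± 0.14 (SE, adjusted p = 1.25e-05, edgeR) and in the striatum 0.88 ± 0.26 (adjusted p = 0.0336), while in the cerebellum it was -0.34 ± 0.21 (adjusted p = 0.264). The change in hippocampus minus that in cerebellum was 2.56 ± 0.24 on the log2 scale (edgeR interaction test with the animal as block, adjusted p = 5.97e-07), and the change in hippocampus minus that in striatum was 1.27 ± 0.26 (adjusted p = 0.00704). Against the cortex the difference was 0.8 ± 0.2 (adjusted p = 0.107), and without the animal of the cortical library that stands apart it was 0.79 ± 0.19 and passed the threshold (adjusted p = 0.0215). Median WT levels of ENSRNOG00000031211 at 2, 6 and 12 months were 0.988, 4.22 and 6.92 CPM in hippocampus, 1.53, 3.76 and 5.35 CPM in cortex, 0.434, 0.81 and 1.58 CPM in striatum, and 1.22, 0.926 and 1.18 CPM in cerebellum. The cerebellar medians stayed within a narrow band over the 3 ages, whereas in the hippocampus the lowest library of 6 months lay above the highest of 2 months. The ranges of WT cortex were also separate, at 3.24 to 4.7 CPM at 6 months and 0.785 to 2.05 CPM at 2 months. Those of WT striatum overlapped, at 0.55 to 1.07 and 0.164 to 0.627 CPM. In Q130 hippocampus the log2 fold change was 1.69 ± 0.28 (adjusted p = 0.00388), and 1.88 ± 0.19 without the 2 Q130 libraries that stand apart (adjusted p = 5.59e-06).

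ENSRNOG00000015159 had the second largest increase and varied much more among animals. At 6 months its lowest, median and highest levels were 1.39, 6.01 and 13.2 CPM, and at 2 months they were 0.824, 1.33 and 2.7 CPM. At 6 months 3 libraries (females 2 and 4 and male 5, at 1.49, 1.6 and 1.39 CPM) lay within the 2-month range and the other 7 lay above it. The log2 fold change was 2.01 ± 0.43 (SE, n = 10 per age, edgeR adjusted p = 0.00448). The call was lost in limma-voom with the first part of the identifier as a random effect (adjusted p = 0.0576). Of the animals that share a first part, females 2 and 4 were both low, females 3 and 5 were the highest at 8.93 and 13.2 CPM, and males 4 and 5 differed, at 6.38 and 1.39 CPM. The same animals could be followed into the cortex, where the levels of ENSRNOG00000015159 at 6 months were 1.78, 1.66 and 2.61 CPM in those 3 rats and 1.82 to 7.32 CPM in the other 7. The 1.82 CPM came from the cortical library that stands apart, and without it the other 6 rats had 3.47 to 7.32 CPM in cortex, all above those 3. At 12 months, in the second batch, all 10 WT hippocampi were above the 2-month range, at 5.89 to 14.8 CPM. The striatum reached the highest 12-month levels of the gene among the 4 tissues, with a WT median of 23.4 CPM and a range of 13.1 to 33.3 CPM. The cerebellum already had 11 to 16.6 CPM at 2 months, and the change in hippocampus minus that in cerebellum was 1.58 ± 0.37 on the log2 scale (adjusted p = 0.0111). In cortex the log2 fold change was 1.23 ± 0.29 (edgeR adjusted p = 0.0194), and in striatum 2.37 ± 0.84 (adjusted p = 0.101). The change in hippocampus minus that in cortex was 0.66 ± 0.26, and minus that in striatum -0.4 ± 0.29. Neither difference was called (edgeR interaction test, adjusted p = 0.389 and 0.442). Without the animal of the cortical library that stands apart, the difference from cortex was 0.52 ± 0.21 (adjusted p = 0.143). In Q130 hippocampus ENSRNOG00000015159 rose by a log2 fold change of 2.4 ± 0.3 (adjusted p = 0.00031), and by 2.3 ± 0.29 without the 2 libraries that stand apart (adjusted p = 0.000103). Its Q130 levels were 1.2 to 18.2 CPM at 6 months, or 1.2 to 11.6 CPM without those 2 libraries, and 0.55 to 2.14 CPM at 2 months. The 18.2 CPM belonged to male replicate 5, the library that correlated best with striatum.

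ENSRNOG00000047551 had the largest decrease in the mean, but its values fell into separate levels within the younger group. All 10 libraries of 6 months lay between 0.793 and 1.17 CPM, with a median of 0.917. At 2 months 6 libraries lay between 0.754 and 1 CPM and 4 libraries (female 5 and males 1, 2 and 5) between 6.14 and 11.1 CPM, and the 2-month median was 0.952 CPM. The ages thus had nearly equal medians, and the log2 fold change of -2.01 ± 0.59 (SE, n = 10 per age, edgeR adjusted p = 0.0277) rested on those 4 libraries. The same division was present throughout the series, where 48 of the 228 libraries had 5.33 to 19.6 CPM and the rest had 0.538 to 1.93 CPM, with no library between these levels. Of the 20 WT rats of 6 and 2 months, 12 had the higher level in some but not all of their tissues and 1 had it in all tissues used here. In Q130 hippocampus the higher level was found in 3 of 10 libraries of 6 months and in 0 of 10 of 2 months, and the log2 fold change was 1.98 ± 0.56 (adjusted p = 0.1). Without the 2 libraries that stand apart it was found in 2 of 8 at 6 months, and the log2 fold change was 1.75 ± 0.65 (adjusted p = 0.157).

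ENSRNOG00000003897 had the second largest decrease and showed it in every tissue examined. Its lowest, median and highest levels were 3.94, 5.01 and 6.54 CPM at 6 months and 9.51, 12.2 and 15.2 CPM at 2 months. The ranges did not overlap, and the log2 fold change was -1.28 ± 0.09 (SE, n = 10 per age, edgeR adjusted p = 2.48e-09). In TPM, ENSRNOG00000003897 averaged 1.7 ± 0.276 at 6 months and 4.2 ± 0.633 at 2 months (SD, n = 10 each). The log2 fold change was -0.96 ± 0.17 in cortex (adjusted p = 0.00266), -1.02 ± 0.11 in striatum (adjusted p = 9.45e-06) and -1.06 ± 0.12 in cerebellum (adjusted p = 5.6e-06). None of the interaction tests between hippocampus and these tissues was called for this gene (adjusted p = 0.657, 0.248 and 0.332), with differences of -0.33 ± 0.19, -0.25 ± 0.13 and -0.22 ± 0.14 on the log2 scale. In Q130 hippocampus the gene fell to 4.57 to 7.67 CPM at 6 months, or 4.62 to 6.36 CPM without the 2 libraries that stand apart, against 8.14 to 13.2 CPM at 2 months. The log2 fold change there was -1.05 ± 0.11 (adjusted p = 3.03e-05), and -1.09 ± 0.1 without the 2 libraries (adjusted p = 9.6e-07). WT hippocampal medians at 2, 6 and 12 months were 12.2, 5.01 and 4.44 CPM.

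**Figure D3:**
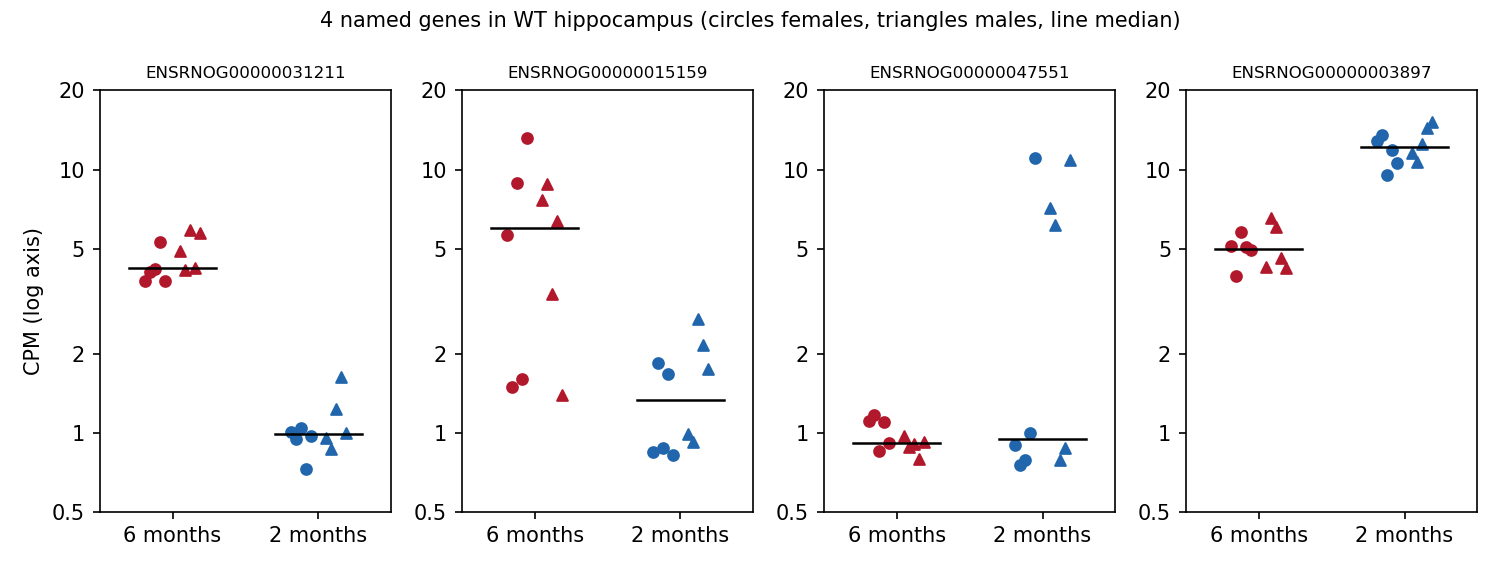
Levels in CPM (log axis) of the 4 named genes in each WT hippocampal library at 6 and 2 months, with circles for females, triangles for males and a line at the median of each age. The ranges are separate for ENSRNOG00000031211 and ENSRNOG00000003897, overlap for ENSRNOG00000015159, and for ENSRNOG00000047551 4 libraries of 2 months lie at 6.14 to 11.1 CPM above all others.

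Genes enriched in 1 brain tissue were used in place of named markers. They were taken from the WT libraries of 12 months, which take no part in the comparison, as genes at least 2 log2 units higher in 1 tissue than in each of the other 3. Of the 66 hippocampus-enriched genes, all tested, 8 rose and 4 fell, 18.2% called against the background of 17.1%, and their median log2 fold change was 0.04. Their mean log2 CPM was 3.19 to 3.41 per library at 6 months and 3.18 to 3.38 at 2 months, so the ranges overlapped almost wholly, and 0 of the 66 changed beyond 1.5-fold. The difference between the ages in this group was smaller than the spread between libraries of 1 age.

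Genes enriched in the other 3 tissues were examined in the same way, since a dissected piece can hold neighbouring tissue. Of 212 tested cerebellum-enriched genes 11 rose and 32 fell (20.3% called), which is 5.19% higher and 15.1% lower against 9.31% and 7.75% of all genes tested. In 68 the estimate was higher and in 144 lower at 6 months, the median log2 fold change was -0.09, and their mean log2 CPM was 1.36 to 1.79 at 6 months and 1.5 to 2.02 at 2 months. Of 35 tested cortex-enriched genes 1 rose and 1 fell (5.71%), with a median of -0.1 and with 0.61 to 1.55 log2 CPM at 6 months and 0.74 to 1.33 at 2 months. Of 86 tested striatum-enriched genes 6 rose and 7 fell (15.1%), with a median of 0.02 and with 1.29 to 1.51 log2 CPM at 6 months and 1.33 to 1.61 at 2 months. All 3 groups had overlapping ranges at the 2 ages, and the part of such tissue in the called genes was not tested. The cortex-enriched genes varied most among libraries of 1 age, with an SD of 0.27 at 6 months and 0.21 at 2 months.

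The tissue of highest level was also compared between called genes and all genes. Of the 1462 that rose, 19.6% had their highest 12-month WT level in hippocampus among the 4 tissues, and of the 1217 that fell, 15.4%, against 18.8% of all genes tested. The striatum was the tissue of highest level for 31.4% of those that rose and for 33.8% of those that fell, against 27.3% of all genes tested.

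The change with age was compared between females and males. In the interaction of age and sex, 0 of 15911 genes were called (0%) by edgeR, 0 by DESeq2 and 0 by limma-voom, and 549 had an unadjusted p under 0.05 in edgeR (3.45%). For 82.5% of genes with a mean of at least 1 CPM the 95% interval of the difference between the sexes lay inside 1.5-fold. Fitted alone, the 5 females of each age gave 635 called genes (4.09%), 329 higher (2.12%) and 306 lower (1.97%), and the 5 males of each age gave 329 (2.12%), 123 higher (0.792%) and 206 lower (1.33%). The genes called higher over both sexes had a median log2 fold change of 0.16 in females and 0.17 in males, and those called lower -0.22 and -0.27. Since both sexes entered the fit that chose these genes, this is a description of how evenly they contribute.

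Q130 rats offered the same comparison in other animals, and no animal or library is common to the 2 genotypes. All 5 first parts of the identifiers of the WT rats of 2 months also occur among the Q130 rats of 2 months, and 1 is shared at 6 months, so what such animals share is not separate between the genotypes. The Q130 hippocampi of 6 months against those of 2 months gave 159 called genes of 15718 tested (1.01%), 95 higher (0.604%) and 64 lower (0.407%). Without the 2 Q130 libraries that stand apart there were 673 of 15839 (4.25%), 289 higher (1.82%) and 384 lower (2.42%). In that reduced set, 1191 of the 1461 measured genes that rose in WT had a higher estimate in Q130 (81.5%, median log2 fold change 0.06), and 1001 of the 1216 that fell had a lower one (82.3%, median -0.1), against 49.9% of all genes tested with a higher estimate. Of the genes that rose in WT, 175 were called higher in Q130 and 0 lower, and of those that fell, 252 were called lower and 0 higher. The 175 are 12% of the WT genes that rose and 60.6% of the Q130 genes that rose, and the 252 are 20.7% of the WT genes that fell and 65.6% of the Q130 genes that fell. With all 20 Q130 libraries the estimates had the direction of the WT change in 1344 of 1460 genes that rose in WT (92.1%) and in 1081 of 1215 that fell (89%), against 50.6% of all genes tested with a higher estimate, and 76 and 53 of them were called.

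Most of the larger WT changes had Q130 estimates of the same direction. Of the 88 genes that rose beyond 1.5-fold in WT, 87 were tested in Q130 without the 2 libraries, 83 had a higher estimate and 38 were called higher, and the median log2 fold change was 0.56 in Q130 and 0.75 in WT. Of the 115 that fell, 114 were tested, 102 had a lower estimate and 47 were called lower, with a median of -0.49 in Q130 and -0.78 in WT. Over all genes tested, 49.9% had a higher estimate in Q130 without the 2 libraries, 1.85% were called higher and 2.45% lower. The WT values chose the genes beyond 1.5-fold, so a smaller Q130 median is not read as a smaller change. Of the genes with separate ranges in WT, 7 of the 58 that rose and 31 of the 106 that fell also had separate ranges in Q130 without the 2 libraries, against 0.261% and 0.509% of all genes tested.

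The interaction of age and genotype called 0 of 15995 genes (0%) with all 40 hippocampal libraries and 0 of 16108 without the 2 that stand apart (0%), by edgeR. At an unadjusted p under 0.05 there were 636 genes (3.98%) with all libraries and 1554 (9.65%) without the 2. DESeq2 called 1 gene with all libraries, ENSRNOG00000047551, with a difference of 4.23 on the log2 scale (adjusted p = 0.000586), the gene whose high values are scattered over libraries as described above, and limma-voom called 0. For 85% of genes with a mean of at least 1 CPM the 95% interval of the difference between the genotypes lay inside 1.5-fold, and for 88.5% without the 2 libraries.

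The other tissues of the same WT rats were compared next. These comparisons share the animals with the hippocampal one but no library. In the cortex 557 of 15756 genes were called (3.54%), 263 higher (1.67%) and 294 lower (1.87%). Without the cortical library that stands apart there were 1680 of 15810 (10.6%), 761 higher (4.81%) and 919 lower (5.81%). The striatum had 7 libraries per age, females 1 to 5 and males 1 and 3, so its comparison was mostly of females. There 1723 of 15871 genes were called (10.9%), 749 higher (4.72%) and 974 lower (6.14%). In the cerebellum 2976 of 15550 were called (19.1%), 1327 higher (8.53%) and 1649 lower (10.6%). The number of libraries and the balance of the sexes differ between the tissues, so the counts are not an order of the sizes of change.

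The directions of the genes called in hippocampus were then counted in the other tissues. The tissues come from the same rats, and after age and sex were removed the levels of a gene in hippocampus and cortex had a median correlation of 0.13 over the 20 rats, so chosen genes can share a direction without a change elsewhere and the shares over all genes are not the value expected by chance. Of those that rose in hippocampus, 78.9% had a higher estimate in cortex without the library that stands apart, 71.9% in striatum and 69.5% in cerebellum, against 51.6%, 49.6% and 50.4% of all genes tested, and the median log2 fold changes were 0.07, 0.06 and 0.05. Of those that fell in hippocampus, 84.5% had a lower estimate in cortex, 77.6% in striatum and 76.7% in cerebellum, against 48.4%, 50.4% and 49.6%, with medians of -0.11, -0.11 and -0.1. The numbers called elsewhere, in both directions, are given next. Of the genes that rose in hippocampus, 324 were called higher (22.4%) and 7 lower (0.483%) in cortex. In striatum 273 were higher (18.8%) and 14 lower (0.962%), and in cerebellum 300 higher (20.8%) and 53 lower (3.67%). Of those that fell, 358 were called lower (29.6%) and 2 higher (0.165%) in cortex. In striatum 338 were lower (27.9%) and 5 higher (0.413%), and in cerebellum 446 lower (37.3%) and 35 higher (2.93%). Of all genes tested in hippocampus and in the other tissue, 4.9% were called higher and 5.86% lower in cortex. These shares were 4.8% and 6.27% in striatum, and 8.65% and 10.7% in cerebellum.

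**Figure D4:**
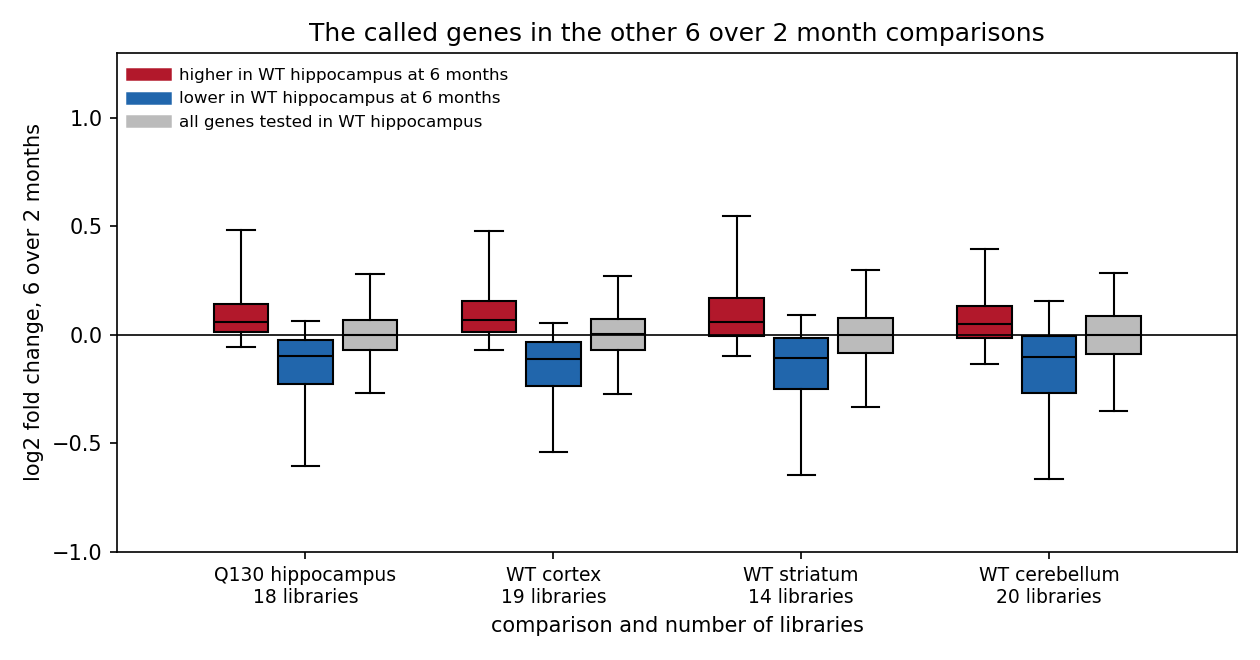
Log2 fold change, 6 over 2 months, of the genes called higher, the genes called lower and all genes tested in WT hippocampus, in 4 other comparisons (box, quartiles with the median line; whiskers, 5th to 95th percentile of genes). The median of the higher genes is 0.05 to 0.07 and that of the lower genes -0.11 to -0.1 in each, and the boxes of all genes are centred at 0.

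Tests of the difference itself separated the tissues. The change with age in hippocampus differed from that in cerebellum in 1827 of 16109 genes (11.3%), with 862 more positive (5.35%) and 965 more negative (5.99%) in hippocampus, in the interaction test of edgeR with the animal as block. It differed from that in striatum in 809 of 16050 genes (5.04%), with 393 more positive (2.45%) and 416 more negative (2.59%). The striatal test used only the rats with a striatal library, which were mostly female. Against cortex the count was 26 of 16000 (0.162%), 18 more positive (0.112%) and 8 more negative (0.05%). It was 724 of 16031 (4.52%), 412 more positive (2.57%) and 312 more negative (1.95%), once the animal of the cortical library that stands apart was left out. Leaving out that animal, male replicate 4 of 6 months, removes its hippocampal library with the cortical one, and the parts of the 2 libraries in the change of the count were not tested.

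The genes called between 6 and 2 months were followed to 12 months. The 12-month libraries are of another batch, so age and batch cannot be told apart there. Genes that rose at 6 months had a median difference of 0.11 on the log2 scale, 12 months minus 2 months, and 1273 of the 1462 (87.1%) had a 12-month mean above the 2-month mean. Genes that fell had a median difference of -0.16, and 1121 of the 1217 were below, while 52.5% of all genes tested were above. Set against 6 months, the same groups had medians of -0.06 and 0.07, so that 28.7% of those that rose and 70.4% of those that fell had a 12-month mean above the 6-month mean. The 6-month values had a part in choosing the genes, and a return toward the 2-month level after such a choice was not tested against other groups. Of the 58 genes with each 6-month library above each 2-month library, 32 had each 12-month library above the 2-month range as well, against 1.13% of all genes tested. Of the 106 below, 54 had each 12-month library below the 2-month range, against 1.02% of all genes tested. The 2-month values also had a part in choosing all these genes, and they are the baseline of the comparisons with 2 months. The direction at 12 months is therefore not independent of the choice, and the shares over all genes are not the values expected by chance.

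The 2 groups of called genes were joined to 1 value per library, the mean log2 level of the genes that rose minus that of the genes that fell, set to 0 at the WT mean of 2 months. It was a selected measure and is given as a description. In WT rats of 2, 6 and 12 months it averaged 0 ± 0.05, 0.54 ± 0.13 and 0.42 ± 0.08 (SD, n = 10 each). In Q130 rats it averaged 0.15 ± 0.18, 0.49 ± 0.25 and 0.4 ± 0.07 (SD, n = 10 each), and 0.42 ± 0.08 at 6 months without the 2 libraries that stand apart. The lowest WT library of 6 months, at 0.36, lay above the highest of 2 months, at 0.07. Male replicate 3 was highest among the WT libraries of 6 months at 0.86, and 1 Q130 library of 2 months (female replicate 5), at 0.66, lay among or above the libraries of 6 months.

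**Figure D5:**
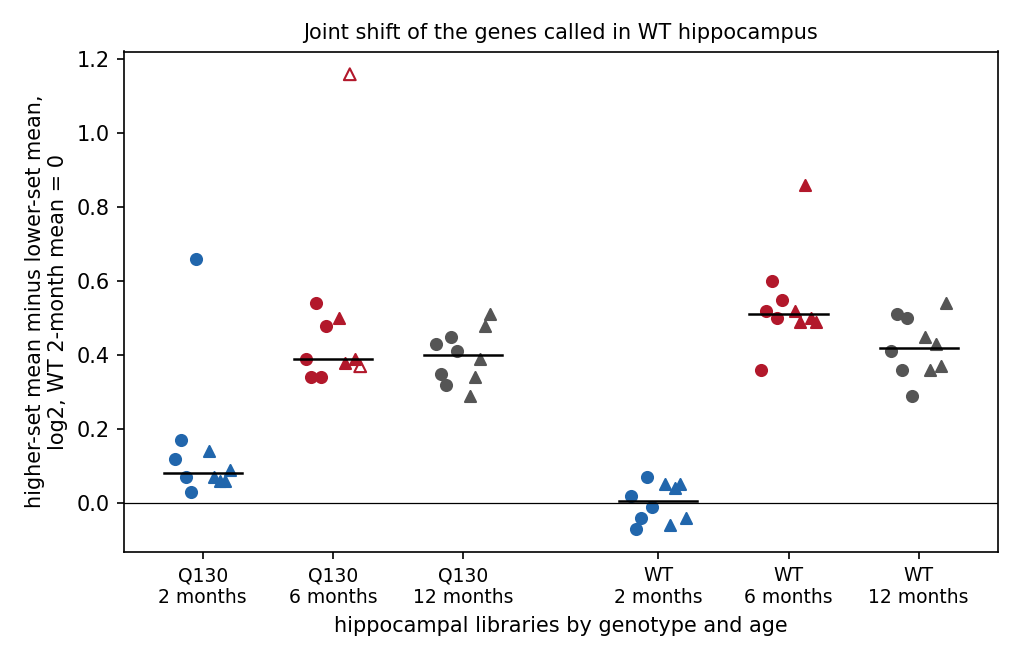
Mean log2 level of the genes that rose minus that of the genes that fell in WT hippocampus, relative to the WT 2-month mean, for each hippocampal library by genotype and age (circles females, triangles males, open symbols the 2 libraries that stand apart, line median of all 10). WT libraries of 6 months lie at 0.36 to 0.86 and WT libraries of 2 months at -0.07 to 0.07.

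The called genes differed in length. The effective length of each gene was read from the ratio of its counts to its TPM value, and the tested genes were split by it into 3 groups of equal size. Of the 5237 genes in the shortest group 11.1% rose and 3.8% fell, of those in the middle group 10.6% rose and 6.95% fell, and of those in the longest group 6.24% rose and 12.5% fell. Without male replicate 3 of 6 months the shares were 8.52% and 4.45% in the shortest group, 8.29% and 8.36% in the middle group, and 6.76% and 13.9% in the longest. In Q130 hippocampus without the 2 libraries that stand apart the shares were 0.903% and 1.82% in the shortest group, 1.99% and 2.57% in the middle group, and 2.64% and 2.97% in the longest, and with all 20 Q130 libraries they were 0.425% and 0.27%, 0.71% and 0.307%, and 0.69% and 0.652%. The median log2 fold change over the shortest, middle and longest group was 0.04, 0.01 and -0.04 in WT, 0.02, 0.01 and -0.02 in Q130 with all libraries, and -0.02, 0 and 0.01 without the 2 libraries, so the order over length in Q130 depended on those 2 libraries. The mean log2 CPM of the longest group minus that of the shortest group was 1.48 to 1.84 per WT library at 6 months and 1.75 to 1.86 at 2 months. The lowest WT value belonged to male replicate 3. In Q130 hippocampus it was 1.33 to 1.83 at 6 months and 1.47 to 1.84 at 2 months. Without the lowest library of each age the Q130 values began at 1.68 and 1.72. The Q130 library of 2 months at 1.47 was kept in the reduced set, and its part in the order over length there was not tested. The part of RNA quality in these shares was not tested.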

How the data were processed

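Per the labels' protocols, specimens were frozen on dry ice, RNA from a Qiagen kit was checked on a Bioanalyzer, and enriched RNA went into Illumina libraries. The authors deposited estimated counts per gene, of which 8.2% of values were not whole, so they were rounded. A second table that the authors deposited is named FPKM, but each column sums to 1000000, as TPM values do; it was used for TPM levels and effective lengths. Aligner, counting program and genome build: not given in the sources used here. Columns were matched to samples by identifier, and 24 count columns were left out because 2 samples share their identifier, which left 14 WT striatal libraries of 2 and 6 months (28 libraries in the comparison with hippocampus) instead of the 20 planned.

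Genes were filtered with filterByExpr, scaled by TMM and tested with edgeR 4.0.16 (robust quasi-likelihood, sex as covariate, or the animal as block between tissues) in R 4.3.3, at a Benjamini-Hochberg adjusted p under 0.05. CPM levels use TMM factors over all 228 libraries, and log2 levels a prior count of 2. Alternatives used DESeq2 1.42.0, limma-voom 3.58.1, other scalings and filters, a replicate block, and each library left out. A library stood apart when its median correlation with its own tissue was under 0.97. The script was tested on simulated data. The planned rule named genes by symbol; its fallback for unpaired identifiers names the 2 called genes with the largest and the 2 with the smallest log2 fold change at a mean of at least 1 CPM. The libraries, groups and tests were chosen with earlier results of these data known. At 29.3 to 41.3 M counts per library, counting error is small for genes above 10 CPM.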

Additional observations from a re-analysis of the deposited data

Results flagged for a closer look

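In 6 of 24 groups of 10 values examined, the highest library was separated from the rest by more than Dixon's 95% critical value for 10 values, a gap that chance gives in about 1 of 20 groups. The mean log2 CPM of the cortex-enriched genes was 1.55 in 1 WT hippocampus of 6 months (female replicate 5). Among WT hippocampi of 2 months, that of the cerebellum-enriched genes was 2.02 in male replicate 4 and that of the striatum-enriched genes 1.61 in male replicate 5. The joint shift of the called genes was 0.86 in male replicate 3 of WT hippocampus at 6 months, 1.16 in male replicate 3 of Q130 hippocampus at 6 months and 0.66 in female replicate 5 of Q130 hippocampus at 2 months.

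The change with age differed between tissues by a test of the difference (edgeR, adjusted p under 0.05). It did so in 26 genes for hippocampus against cortex (0.162% of those tested), 809 against striatum (5.04%, 28 libraries) and 1827 against cerebellum (11.3%). Against cortex the count was 724 (4.52%) without the animal of the cortical library that stands apart. Among the named genes the change with age differed for ENSRNOG00000031211, by 1.27 on the log2 scale, hippocampus minus striatum, and by 2.56, hippocampus minus cerebellum. It also differed for ENSRNOG00000015159, by 1.58, hippocampus minus cerebellum.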

How the results depend on the processing

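The count of 2679 called genes lay between 2045 and 2821 when each library was left out in turn, lowest without male replicate 2 of 2 months, and between 2004 and 3089 under DESeq2, limma-voom, other scalings and filters and no sex covariate. Limma-voom with the first part of the identifier as a random effect (correlation 0.142) gave 2004. The count fell to 657 in 1 fit over 40 libraries, 635 in females only and 329 in males only, the last 2 with fewer samples; for the first, leaving out the 2 Q130 libraries that stand apart, an alternative chosen after seeing the data, gave 2111. The share of calls that were higher was 46.8% to 56.3% over the left-out libraries, at the lower end without male replicate 3 of 6 months, and 49.2% without female replicate 3 of 2 months. With all 20 libraries this share was 54.6% in the main fit. It was 50.3% with no filter, 50.4% with no sex covariate and 48.5% with the replicate block. DESeq2, limma-voom and the other scalings and filter gave 51.3% to 52.9%. Libraries of the 2 ages with the same sex and number did not deviate together (r of -0.121 to 0.0286 over 10 pairs), so the numbers do not pair them, and with the replicate block the count was 2454.

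For Q130 hippocampus, 159 became 418 under DESeq2 and 673 without the libraries that stand apart. The age by genotype count of 0 became 1 under DESeq2. Without the animal of the cortical library that stands apart, 26 genes differing between hippocampus and cortex became 724, and without that library, an alternative chosen after seeing the data, the 557 cortical calls became 1680; the cause was not tested. ENSRNOG00000031211 and ENSRNOG00000003897 were called in all 32 alternatives run, at log2 fold changes of 2.1 to 2.23 and -1.33 to -1.23. ENSRNOG00000015159 was called in 28 of 32 (1.69 to 2.34, highest adjusted p = 0.122) and not with the replicate block (adjusted p = 0.0526). ENSRNOG00000047551 was called in 25 of 32 (-2.53 to -1.23, highest adjusted p = 0.394) and was not called without female replicate 5 or without male replicate 5 of 2 months. The call was also lost in limma-voom (adjusted p = 0.205), and with the first part of the identifier as a random effect (adjusted p = 0.263). In edgeR it was lost with the replicate block (adjusted p = 0.143) and in each sex alone. The median of the tissue-enriched groups stayed within the spread between libraries in 127 of 128 alternatives, the exception being the striatum-enriched genes in males only, at -0.07.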
